A study of Mus musculus with 4 samples.

Results

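The 9 genes described here encode enzymes that break down amino acids in the liver: Hal, Uroc1, Sds, Sdsl, Gls2, Tat, Hpd, Tdo2 and Prodh. They were chosen by name, as 9 of the 24138 rows of the expression table, and all 9 were among the 10541 genes that averaged 1 FPKM or more, which were called expressed. FPKM is the number of fragments scaled by transcript length and by the number of mapped fragments, so levels can be compared between genes. The samples were livers of 4 male C57BL/6J mice, 18 weeks old, which per the labels had received the FAT-MASH diet, which models metabolic dysfunction-associated steatohepatitis, and resolvin D1 (RvD1), a lipid mediator formed from docosahexaenoic acid. They are named livers 1 to 4 after the labels. The dose and route of RvD1 are not given in the sources used here. All 4 livers carry both the diet and RvD1, and no other group was analysed here, so the values describe levels and the spread between animals, and no effect of diet or treatment can be read from them.

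The liver is the main site at which the carbon skeletons of surplus amino acids are turned into fuel, glucose or fat, and at which their nitrogen is passed to the urea cycle. Most of the enzymes considered act at or near the first step of a route, where the amino acid is committed to breakdown. Several of their genes, Tat among them, are textbook targets of glucocorticoids and glucagon, and Hal, Uroc1, Sds and Gls2 are known as genes of periportal hepatocytes, which lie where blood enters the lobule.

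Approximate depth was 20.1, 19.3, 19.5 and 18.8 M fragments (M, mega) in livers 1 to 4, estimated from low values within a fixed window. The window bounds the depth that can be found, so these values are a rough guide only. Liver 2 stood apart in its acute phase transcripts, with all 12 of 12 listed genes highest there, against 22.0% of all expressed genes. Their median deviation from the gene means on the log2(FPKM + 1) scale was 0.79, against -0.02 over all expressed genes. In liver 3, 11 of the 12 were lowest, against 31.4% of all expressed genes, with a median deviation of -0.58. Of 9 hepatocyte markers, Ttr, Apoa1, Apoc3, Hnf4a, Cps1, Fgb and Ahsg were abundant in every liver, Alb was listed at 0 in all 4 livers, and Serpina1b was listed at 0 in livers 3 and 4 only. Hence a value of 0 for an abundant gene in this table is not a measure of absence. None of the 9 enzymes was listed at 0 in any liver. Of the pancreatic acinar and adipose markers, 4 of 5 and 2 of 4 were listed at 0 throughout. Cela1, the acinar marker above 0, was at 4.00 to 5.19 FPKM, and the adipose marker Cfd was at 2.81, 0.961, 0.556 and 4.49 FPKM in livers 1 to 4.

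The enzymes spanned a 147-fold range of mean level. In descending order the means were Hpd, Tdo2, Tat, Sds, Uroc1, Gls2, Prodh, Hal and Sdsl. Hpd, Tdo2 and Tat together made up 78.2 ± 2.60% of the summed FPKM of the 9 genes (SD, n = 4), and the 9 genes made up 0.647 ± 0.0549% of all FPKM. Of the 8 neighbouring pairs in that order, 6 kept it in all 4 livers. The exceptions were Tdo2 over Tat and Uroc1 over Gls2, each seen in 3 of 4 livers. The ranges of the livers overlapped for 4 pairs: Tdo2 and Tat, Sds and Uroc1, Uroc1 and Gls2, and Gls2 and Prodh. A paired exact permutation test over so few livers cannot pass a threshold of 0.05, so these pairs are described by their counts of livers.

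**Figure D1:**
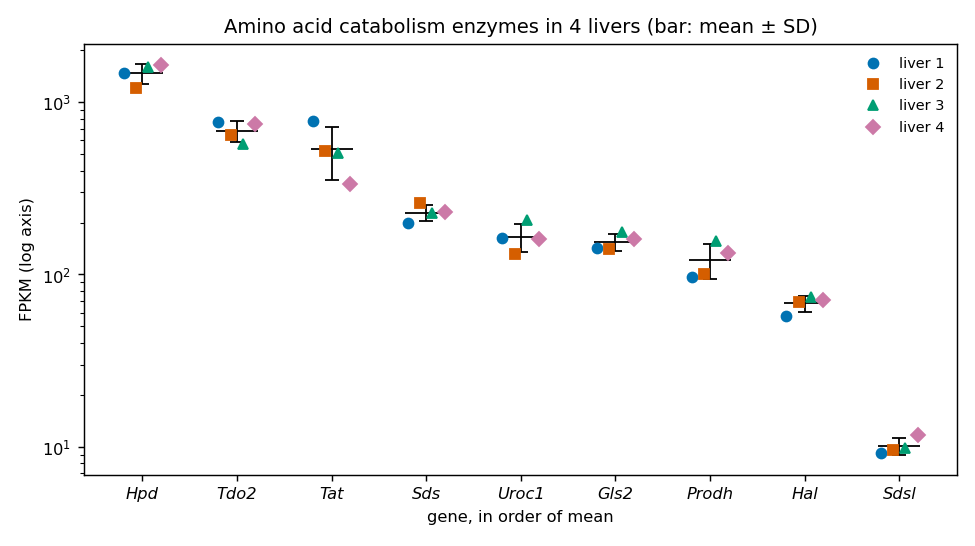
FPKM of the 9 enzymes (log axis) in each liver (symbols), with the mean and SD (bars, n = 4), in order of mean. Hpd lies above 1203 FPKM in every liver and Sdsl below 11.7 FPKM, and the points of Tat spread over 2.33-fold.

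Tyrosine breakdown held the most abundant and the most variable of the 9 genes. Tat (XLOC_020990, chromosome 8, 109990436 to 109999804, mm10) encodes tyrosine aminotransferase, which removes the amino group of tyrosine. It was at 780, 522, 505 and 335 FPKM in livers 1 to 4. Liver 1 was the highest and liver 4 the lowest, a 2.33-fold range, with livers 2 and 3 close together between them. The mean was 536 ± 183 FPKM (SD, n = 4), a coefficient of variation of 34.2%. Hpd (XLOC_016819, chromosome 5, 123171807 to 123182686) encodes 4-hydroxyphenylpyruvate dioxygenase, which takes the product of Tat to homogentisate. It was at 1471, 1203, 1606 and 1635 FPKM in livers 1 to 4, with a mean of 1479 ± 197 FPKM (SD, n = 4). Liver 2 was the lowest, and the other 3 livers lay closer to each other than to it. Hpd ranked 47 in mean level among all expressed genes.

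The ratio of Tat to Hpd, which does not depend on how the libraries are scaled, was 0.530, 0.434, 0.315 and 0.205 in livers 1 to 4, a 2.59-fold range. The ratio between the next enzymes of the route was steadier. The ratio of Hpd to Hgd, the homogentisate dioxygenase that acts after Hpd, was 3.52 ± 0.169 (SD, n = 4). Of the 8 genes of phenylalanine and tyrosine breakdown, Tat was the only gene with an SD of log2(FPKM + 1) of at least 0.25, the threshold used here for a wide spread, which 18.3% of all expressed genes reached.

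Tryptophan breakdown begins with Tdo2 (XLOC_013802, chromosome 3, 81958414 to 81975728), which encodes tryptophan 2,3-dioxygenase and opens the indole ring. Tdo2 was at 766, 645, 571 and 745 FPKM in livers 1 to 4, with a mean of 682 ± 90.9 FPKM (SD, n = 4). Liver 1 was the highest and liver 3 the lowest. Of the other dioxygenases of this step, Ido2 had 26.6 FPKM on average, and Tdo2 held 96.2 ± 0.742% of the summed FPKM of Tdo2 and Ido2 (SD, n = 4). Ido1 was listed at 0 in all 4 livers, which in this table does not measure its level. Afmid, the formamidase of the next step, was at 46.1, 49.2, 98.4 and 71.9 FPKM in livers 1 to 4. Its highest liver was the lowest for Tdo2, and the ratio of Tdo2 to Afmid was 16.6, 13.1, 5.80 and 10.4 in livers 1 to 4. Of the 9 expressed genes of this route, Afmid, Acmsd and Aadat had an SD of at least 0.25 and Tdo2 did not, against 18.3% of all expressed genes. In liver 3, 6 of the 9 were highest, against 26.8% of all expressed genes.

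Histidine breakdown was represented by a pair of consecutive enzymes. Hal (XLOC_001729, chromosome 10, 93488768 to 93516743) encodes histidine ammonia-lyase, which turns histidine into urocanate. It was at 57.7, 68.9, 73.9 and 71.5 FPKM in livers 1 to 4, with a mean of 67.99 ± 7.17 FPKM (SD, n = 4). Liver 1 lay below the other 3, which were close together. Uroc1 (XLOC_017399, chromosome 6, 90333289 to 90364548) encodes urocanate hydratase, which acts next. It was at 162, 132, 206 and 161 FPKM in livers 1 to 4, with a mean of 165 ± 30.6 FPKM (SD, n = 4). Livers 1 and 4 were alike, liver 2 was the lowest and liver 3 the highest, a 1.56-fold range. The SD of log2(FPKM + 1) was 0.26 for Uroc1 and 0.16 for Hal, but 0.17 and 0.16 without liver 3 and 0.20 and 0.19 without liver 2, so the wider spread of Uroc1 rested on those livers. Uroc1 exceeded Hal in all 4 livers, and the ratio of Hal to Uroc1 was 0.355, 0.523, 0.359 and 0.444. The later enzymes of the route, Amdhd1 and Ftcd, had 62.5 and 131 FPKM on average, and neither had an SD of at least 0.25.

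Proline is oxidised in mitochondria by proline dehydrogenase, the product of Prodh (XLOC_008193, chromosome 16, 18071726 to 18089190). Prodh was at 97.1, 100.4, 157 and 134 FPKM in livers 1 to 4, with a mean of 122 ± 28.5 FPKM (SD, n = 4). Livers 1 and 2 were low, liver 4 was intermediate and liver 3 was the highest, a 1.62-fold range. Prodh2, which acts on hydroxyproline, had a like mean of 122 FPKM, and Prodh held 42.8%, 49.4%, 55.1% and 51.4% of their sum in livers 1 to 4. Aldh4a1, the dehydrogenase that completes proline oxidation, was at 154, 131, 194 and 169 FPKM and was likewise highest in liver 3. Oat, the ornithine aminotransferase of pericentral hepatocytes, had the widest spread of the 6 genes of this route, at 95.1, 37.97, 80.6 and 67.7 FPKM in livers 1 to 4.

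Serine breakdown to pyruvate and ammonia is carried out by serine dehydratase, the product of Sds (XLOC_016105, chromosome 5, 120476547 to 120503623). Sds was at 198, 258, 226 and 231 FPKM in livers 1 to 4, with a mean of 228 ± 24.5 FPKM (SD, n = 4). It was the only one of the 9 genes that was highest in liver 2. Its relative Sdsl (XLOC_016783, chromosome 5, 120458202 to 120472763), serine dehydratase-like, is the neighbouring gene on the opposite strand. Sdsl was at 9.17, 9.54, 9.81 and 11.7 FPKM, with a mean of 10.1 ± 1.12 FPKM (SD, n = 4), so that liver 4 lay above 3 similar livers. Sds was 22.9 ± 3.11 times as abundant as Sdsl (SD, n = 4) and made up 95.8 ± 0.527% of their sum. In GENCODE vM21, 0 windows of 50 bases in the longest Sdsl transcript occur in a transcript of another gene. In Sds, 28.9% of such windows lie in Plbd2 or Gm15690 on the opposite strand. The deposited span of Sds is also that of Plbd2, which was at 31.3 to 39.3 FPKM, and whether fragments were assigned by strand is not given in the sources used here.

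Glutamine enters breakdown through glutaminase. Gls2 (XLOC_001864, chromosome 10, 128194635 to 128211794), the liver-type enzyme, was at 143, 140, 177 and 160.0 FPKM in livers 1 to 4, with a mean of 155 ± 17.3 FPKM (SD, n = 4). Livers 1 and 2 were low and liver 3 was the highest. Glud1, the glutamate dehydrogenase that acts on the glutamate released, varied less, at 308 ± 16.9 FPKM (SD, n = 4). The span given for Gls2 is also that of Spryd4, whose exons overlap Gls2 on the opposite strand and which was at 14.5 to 24.1 FPKM. In the longest Gls2 transcript, 0 windows of 50 bases occur in a transcript of another gene.

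**Figure D2:**
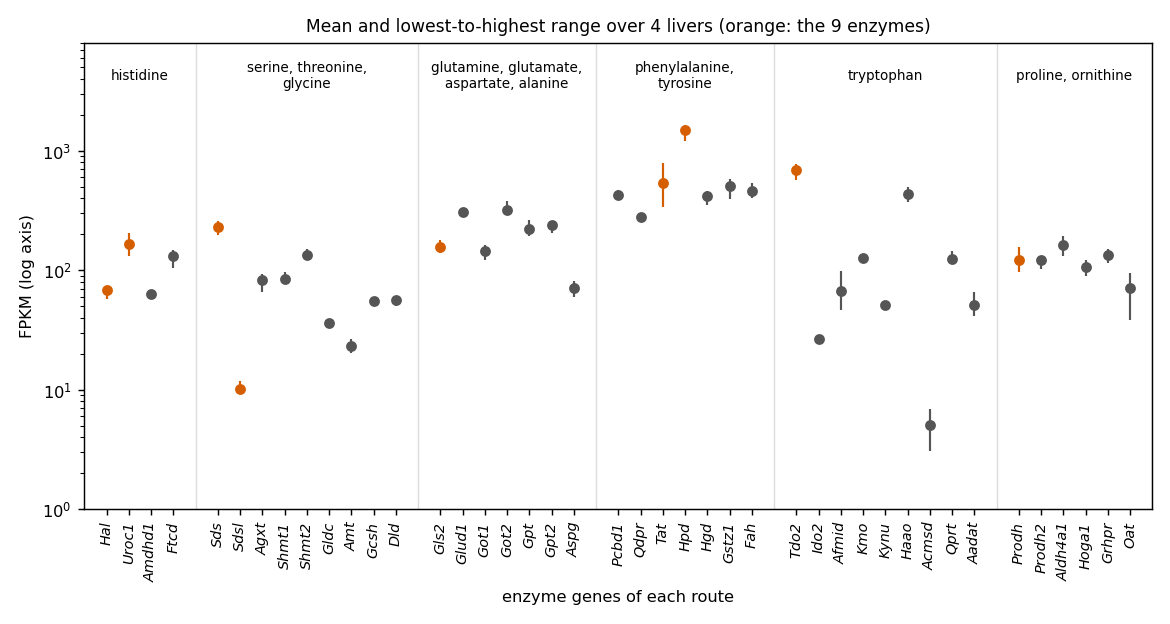
Mean FPKM (points, log axis) and the range from the lowest to the highest of 4 livers (lines) for enzyme genes of 6 routes, with the 9 enzymes in orange. Hpd and Tdo2 are the highest points of their routes, Acmsd is the lowest point shown, and Tat has a longer range than the other tyrosine enzymes.

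Spread between livers was compared with that of all expressed genes. An SD of log2(FPKM + 1) of at least 0.25 was found for 3 of the 9 genes, Tat (0.50), Prodh (0.33) and Uroc1 (0.26), while 18.3% of all 10541 expressed genes reached it. Among the genes of at least 50 FPKM the share was 16.8%. Uroc1 lay just above the threshold, and the next gene below it, Hpd, had 0.20. By the ratio of the gap to the nearest liver over the range (Dixon), 0 of the 9 genes had a liver apart from the other 3 at the 95% critical value, against 5.64% of all expressed genes. Without liver 2, and likewise without liver 3, Uroc1 fell below an SD of 0.25 and 2 of 9 genes remained, Prodh and Tat. The share of all expressed genes that reached this SD was then 18.6% and 15.3%. The median SD of the 9 genes was 0.20, against 0.16 over all expressed genes. With each library scaled to the same sum the medians were 0.17 and 0.17. Within its own decile of expressed genes by mean level, the SD of Tat was at the 97.2nd percentile, that of Prodh at the 92.98th and that of Uroc1 at the 85.8th. Those of Sdsl, Sds and Gls2 were between the 43.1st and the 45.4th, and that of Hal was close to them.

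Counting error at the estimated depth was compared with this spread. About 249 fragments fell on Sdsl on average, which gives a counting error of 6.34% against a coefficient of variation of 11.2% between livers. That excess rested on liver 4, since the coefficient of variation of Sdsl was 3.36% without it, and it was 6.78% with each library scaled to the same sum. For the other 8 genes about 4827 to 42845 fragments gave counting errors between 0.483% and 1.44%, against 10.5% to 34.2% between livers. These figures rest on the depth estimate, which is bounded by the window of values used for it, so they are approximate. They cover counting error only.

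**Figure D3:**
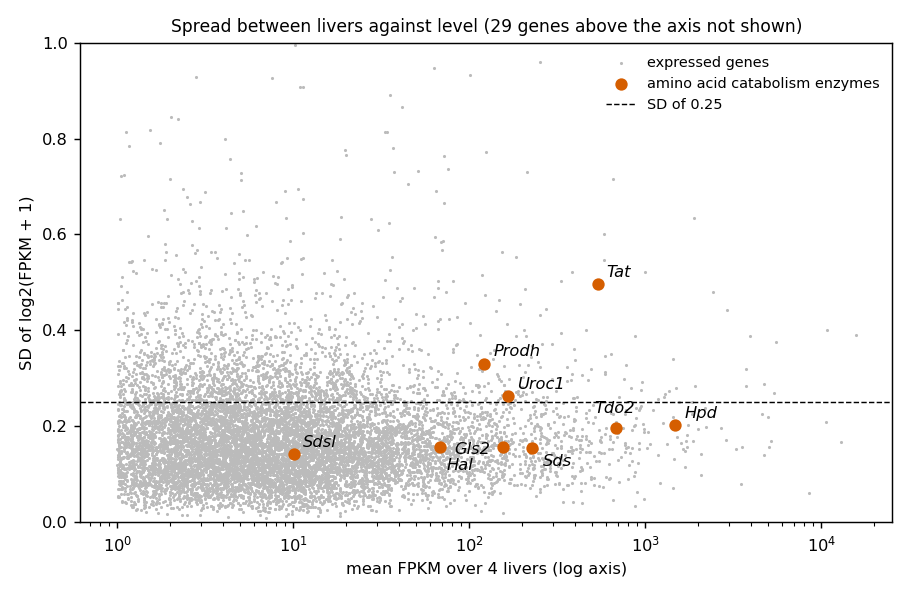
SD of log2(FPKM + 1) over 4 livers against mean FPKM (log axis) for expressed genes (grey) and the 9 enzymes (orange), with the threshold of 0.25 dashed. Tat, Prodh and Uroc1 lie above the line and the other 6 enzymes below it, and 29 genes with an SD above 1 are off the axis.

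The 9 enzymes did not share a pattern over the livers. Liver 3 was the highest for 4 of them, Hal, Uroc1, Gls2 and Prodh, while 26.8% of all expressed genes were highest there. Liver 1 was the highest for Tat and Tdo2 (2 of 9, against 17.9% of all expressed genes), liver 4 for Sdsl and Hpd (2 of 9, against 33.3%) and liver 2 for Sds (1 of 9, against 22.0%). The lowest value was in liver 1 for 4 genes, Hal, Sds, Sdsl and Prodh, with 20.7% of all expressed genes lowest there. With each library scaled to the same sum or by median ratios, liver 3 was the highest for 5 of 9 and liver 4 for 1 of 9. The shares of all expressed genes moved the same way, to 34.2% with the same sum and 29.0% with median ratios for liver 3, and to 15.6% and 27.1% for liver 4.

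Deviations were taken as log2(FPKM + 1) in each liver less the mean over the 4 livers. Their median over the 9 genes was -0.11, -0.07, 0.13 and 0.08 for livers 1 to 4, where over all expressed genes it was -0.01, -0.02, -0.01 and 0.04. In liver 4, 7 of 9 genes lay above their own means, against 60.8% of all expressed genes. Scaling each library to the same sum lowers every gene of liver 4 alike. The median of the 9 genes there was then -0.02 and that of all expressed genes -0.04, and 4 of 9 genes lay above their means, against 38.1% of all expressed genes. The size of the medians also rested on single livers. That of liver 1 was -0.04 without liver 3 and -0.05 without liver 4, and that of liver 2 was -0.12 without liver 4. That of liver 3 was 0.05 without liver 2. That of liver 4 was 0.12 without liver 3 and 0.02 without liver 1, where all expressed genes had 0.04. The widest contrast within the list was between Tat and Prodh, whose deviations differed by 0.64 (root mean square over 4 livers), and the closest pair was Hal and Sds, at 0.11.

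**Figure D4:**
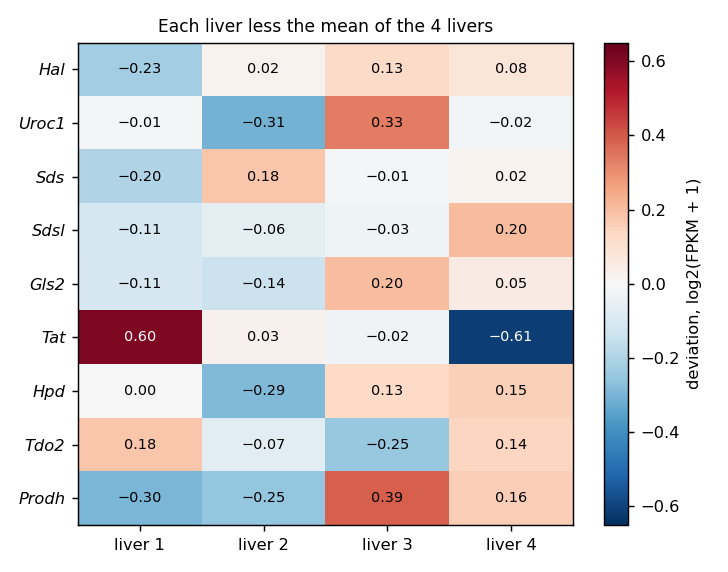
Deviation of each liver from the mean of the 4 livers, in log2(FPKM + 1), for the 9 enzymes (rows) and livers 1 to 4 (columns). Tat runs from 0.60 in liver 1 to -0.61 in liver 4, Prodh and Uroc1 are highest in liver 3, and no column has the same sign in every row.

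The genes nearest in pattern were sought among 6529 other genes averaging 5 FPKM or more, by the root mean square difference of deviations over the 4 livers. For Tat they were Rnf141 (0.05), Junb (0.10) and Khnyn (0.14), and only 1 gene lay within 0.1. Rnf141 was at 11.4, 7.01, 7.22 and 4.65 FPKM in livers 1 to 4. For Prodh they were Gata4, Sf3a2 and Pkdcc, with 50 genes within 0.1, and for Uroc1 they were Tubb4b, Gpr108 and Fem1a, with 275 genes within 0.1. The median profile of the 9 genes was nearest to Sdhc, Dst and Sars, and 1262 genes lay within 0.1 of it. With 4 livers, likeness of this kind is a description of these samples.

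The promoter windows of 6 of the 9 genes were matched in the RefSeq table of GRCm38.p6 (Tdo2, Hpd, Uroc1, Tat, Hal and Prodh). Sds, Sdsl and Gls2 were not matched. The start site of the window equalled the edge of the deposited span for 5 of the 6. The 250 bases before the start are shown for Tat, whose transcript varied most, and for Hal and Uroc1, the consecutive enzymes of histidine breakdown. They are printed 5′ to 3′ on the strand of the gene. Capitals mark the CCAAT box, searched by those letters on both strands, and the TATA box, searched as TATAAA on both strands. The windows are chr8:109990186-109990435 (plus strand) for Tat, chr10:93488518-93488767 (plus strand) for Hal and chr6:90333039-90333288 (plus strand) for Uroc1.
Tat: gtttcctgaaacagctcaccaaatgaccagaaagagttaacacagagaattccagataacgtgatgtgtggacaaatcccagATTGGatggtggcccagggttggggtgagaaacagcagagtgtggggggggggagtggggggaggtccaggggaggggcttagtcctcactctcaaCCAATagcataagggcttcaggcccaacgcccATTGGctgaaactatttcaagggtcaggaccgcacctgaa
Hal: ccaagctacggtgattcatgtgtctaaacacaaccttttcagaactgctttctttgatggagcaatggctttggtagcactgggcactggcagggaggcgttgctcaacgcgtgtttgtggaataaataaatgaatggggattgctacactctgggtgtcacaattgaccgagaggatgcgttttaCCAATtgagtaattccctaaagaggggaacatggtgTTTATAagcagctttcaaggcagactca
Uroc1: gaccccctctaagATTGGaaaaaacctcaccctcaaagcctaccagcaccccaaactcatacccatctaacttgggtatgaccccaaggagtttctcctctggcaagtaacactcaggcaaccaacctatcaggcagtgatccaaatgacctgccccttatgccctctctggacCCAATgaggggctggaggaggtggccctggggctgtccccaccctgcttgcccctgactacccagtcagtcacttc

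In these windows, the CCAAT box occurred 3 times in Tat, at 36 to 40, 68 to 72 and 164 to 168 bases before the start. It occurred in Hal at 60 to 64 bases and at 72 to 76 and 233 to 237 bases in Uroc1. The TATA box occurred in Hal at 23 to 28 bases before the start. No matches overlapped. The CCAAT box was in 4 of the 6 matched windows and in 33.8% of all 32851 windows of 250 bases, and the TATA box in 2 of 6 and 12.4%. Both counts include the window of Tdo2, whose 250 bases all lie in annotated exons of Tdo2 and whose TATAAA is 224 to 229 bases before the start. The GC box, searched as GGGCGG on both strands, was in 1 of 6 and 32.7%. The core of the glucocorticoid response element, searched as AGAACA on both strands, was in 0 of the 6 windows and 16.1% of all windows. The full glucocorticoid response element, which contains that core in both orientations, was in 0 of 6 and 0.00913%. The cAMP response element, searched as TGACGTCA, was in 0 of 6 and 1.55%. Its core, searched as TGACG on both strands, which any full element contains, was in 0 of 6 and 17.8%. A match is a description of letters, and the absence of one says only that these letters are not in this window.

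The other genes of amino acid breakdown were taken from 9 lists by route. Of 68 further genes, 67 were in the table and 63 were expressed, and 9 of the 63 had an SD of at least 0.25, against 3 of the 9 enzymes and 18.3% of all expressed genes. Without liver 1 the count was 13 of 63 and without liver 4 it was 12, where 23.3% and 19.2% of all expressed genes reached that SD. Without liver 2 or without liver 3 it was 6, where 18.6% and 15.3% of all expressed genes reached it. With all 4 livers the median SD of the 63 genes was 0.16. In the branched-chain route, 17 of 21 expressed genes were highest in liver 4 as deposited, against 33.3% of all expressed genes, and 9 of 21 with each library scaled to the same sum, against 15.6%. In the lysine route, which begins with Aass, Aadat had the widest spread, and in cysteine breakdown the most abundant gene was Cdo1, cysteine dioxygenase, at 962 FPKM on average. In the urea cycle, which receives the nitrogen released, 1 of 7 genes had an SD of at least 0.25, against 18.3% of all expressed genes. That gene was Cps1, the carbamoyl phosphate synthetase of the entry step, at 541, 449.9, 748 and 617 FPKM in livers 1 to 4.

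Transcripts of regulators were read beside the enzymes. Of 14 regulators, 5 had an SD of at least 0.25, against 18.3% of all expressed genes, among them Onecut1, Cebpb, Cebpa and Hnf4a, which are transcription factors of hepatocytes. Onecut1 was at 1.25, 6.20, 23.7 and 7.33 FPKM in livers 1 to 4, and Cebpa at 142, 181, 293 and 160.0 FPKM. Hnf4a was at 93.9, 103.8, 156 and 118 FPKM. These 3 were highest in liver 3, the highest liver for Prodh, Uroc1, Gls2 and Hal, and lowest in liver 1. Cebpb was instead highest in liver 2, at 273 FPKM, and lowest in liver 4, at 123 FPKM. Of the 14 regulators, 5 were highest in liver 3 and 5 lowest in liver 1, against 26.8% and 20.7% of all expressed genes. The glucocorticoid receptor Nr3c1 and the glucagon receptor Gcgr had 13.97 ± 1.59 and 117 ± 9.18 FPKM (each SD, n = 4), and neither reached an SD of 0.25. Of 8 genes induced by glucocorticoids or fasting, 5 had an SD of at least 0.25, a share above those 18.3%. Igfbp1, with the widest spread, was at 59.3, 103.9, 19.6 and 20.1 FPKM in livers 1 to 4. Zbtb16, named after its values were seen, was at 4.88, 3.71, 2.12 and 1.06 FPKM, the same order of livers as for Tat. It was the only 1 of these 8 genes with that order, which 2.38% of all expressed genes had. Fkbp5, another glucocorticoid target, was lowest in liver 1, at 7.31 FPKM, and highest in liver 2, at 16.1 FPKM. Whether any of these moved the enzymes was not tested.

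Zonation and cell type markers were read in the same way. Outside the 9 enzymes, 9 periportal genes had median deviations between -0.05 and 0.02 in the 4 livers. These medians cover a split list: in liver 2 its deviations ran from -0.52 for Hsd17b6 to 0.30 for Etnppl. An SD of at least 0.25 was found for 3 of these 9 and 9 of 12 pericentral genes, against 18.3% of all expressed genes. The 12 pericentral genes had a median of -0.32 in liver 2, where 1 of 12 lay above its mean, against 45.1% of all expressed genes. Their medians were 0.06 to 0.15 in the other livers, but -0.03 in liver 4 with each library scaled to the same sum. Among the 9 enzymes, 3 were lowest in liver 2 (Hpd, Uroc1 and Gls2), against 29.9% of all expressed genes, a share close to theirs. The summed level of 6 macrophage markers was between 52.7 FPKM in liver 3 and 72.97 FPKM in liver 4, that of 6 endothelial markers between 41.9 in liver 1 and 54.5 in liver 2, and that of 6 stellate markers between 166 in liver 3 and 259 in liver 2. The endothelial sum is mostly Clec4g, at 26.7 to 33.6 FPKM and highest in liver 4, and the median deviation of that list was -0.23 in liver 1 and 0.33 in liver 2. The stellate sum is mostly Dcn, at 117 to 194 FPKM, and by the median deviation of the list liver 4 was the lowest, at -0.22, with -0.12 in liver 3. Of the erythroid transcripts, the 2 rows of Hba-a1, a haemoglobin chain, were highest in liver 1 and lowest in liver 3, at 814 and 308 FPKM in the more abundant row, whereas Alas2, the erythroid enzyme of haem synthesis, was highest in liver 3, at 64.0 FPKM. The expressed neutrophil markers, S100a8 and S100a9, were both highest in liver 2, at 7.79 and 7.93 FPKM, and lay on opposite sides of their means in liver 4. No marker of these 5 lists that was found in the table was at 0 in all livers. In bulk tissue, fewer hepatocytes and less RNA per hepatocyte cannot be told apart, and the part of cell composition or blood content in the spread of the enzymes was not tested.

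**Figure D5:**
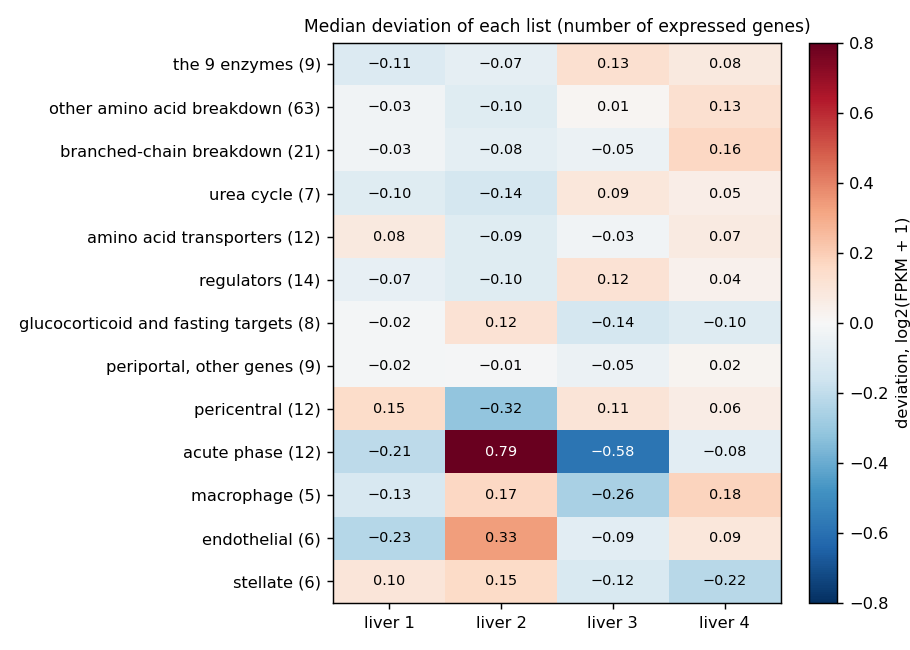
Median deviation in log2(FPKM + 1) of each gene list (rows, with the number of expressed genes) in livers 1 to 4 (columns). The 9 enzymes run from -0.11 in liver 1 to 0.13 in liver 3, a narrower range than the acute phase list, which has 0.79 in liver 2 and -0.58 in liver 3.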

How the data were processed

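Per the labels, RNA was extracted from whole livers with a column kit and sequenced after poly(A) enrichment. Per the submitters' processing notes, FastQC 0.10.1, Trim Galore 0.6.3, cutadapt, STAR 2.7.6a, Cufflinks 2.2.1 and build mm10 were used, and their parameters and annotation are not given in the sources used here. The unit of the values the authors deposited was inferred as FPKM from the form of the identifiers and because they are not whole numbers. Columns were matched to livers by the sample descriptions. Deposited starts equalled RefSeq starts in 52.2% of 22485 symbols with 1 added, and in 3.01% without, so 1 was added.

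Values were analysed as log2(FPKM + 1) with Python 3.11.15 and pandas 2.3.3, and this scale understates differences of low genes. Depth was estimated from low values, within a fixed window, of genes with a single transcript. Subtracting 100, 200 or 300 bases for fragment length gave 18.2 to 21.1 M fragments. The window itself bounds the estimate, so this narrow range is not a check of the depth. With 1 group, no test between groups was made. The statistics were tested on simulated data. These had less noise than the real genes and large shifts in a single library, and the Dixon ratio was taken there on the log2 scale. They do not show how the statistics perform at the spread seen here. The members and lists (27 lists with 200 symbols, 195 of them found among the deposited rows) were chosen with earlier results of these data known. Genes named in the text are the 9 enzymes, their neighbours in each route, the most abundant and the most variable gene of each list and the 3 genes nearest in pattern. Some listed genes are counted but are not reported here by name. Any further gene was named with its values in view. The CCAAT, TATA and GC boxes, the scaled counts by liver and the count of genes in the order of Tat were added after the data were seen. Protein sequences were not used here.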

Additional observations from a re-analysis of the deposited data

How the results depend on the processing

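Precision is limited by the number of livers (4) and by 1 group. No paired analysis was possible because there is a single group, so that no groups share replicate numbers. A pseudocount of 0.1 or 5, scaling by median ratios or to an equal sum, and a minimum of 0.1 or 5 FPKM or none left 3 of the 9 enzymes with an SD of at least 0.25, and leaving out a liver gave 2 to 3. The share of all genes past the same value, 18.3%, moved more: it was 29.8% and 5.39% with a pseudocount of 0.1 and 5, 24.4% with an equal sum, 9.79% with no minimum, and 15.3% to 23.3% when a liver was left out. With a pseudocount of 0.1 the 3 of 9 lie near that share. The count for the other breakdown genes, 9, was 7 to 9 under the pseudocounts and scalings and 6 to 13 when a liver was left out. With an equal sum, which lowers every gene of liver 4 alike, the median deviation in liver 4 was -0.02 for the 9 enzymes and -0.04 for all expressed genes. Leaving out a liver gave medians of -0.14 to -0.04, -0.12 to -0.07, 0.05 to 0.15 and 0.02 to 0.12 for livers 1 to 4. The order of means was the same with an equal sum. The count of enzymes past Dixon's critical value was 0 on the FPKM scale, on the log2 scale and with median ratios, and the highest ratio, 0.747, was that of Sdsl. Leaving out a liver moved the coefficient of variation by over 1.5 times for Hal (3.52% without liver 1), Tat (22.7% without liver 1), Hpd (5.59% without liver 2), Uroc1 (11.5%) and Gls2 (7.41%, both without liver 3) and Sdsl (3.36% without liver 4). An equal sum lowered that of Sdsl to 6.78%.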
